A study of Mus musculus with 8 samples.

Results

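The 6 joining segments TRBJ1-1 to TRBJ1-6 form the first of the mouse TCR β-chain J clusters, and they were followed through the β-chain repertoires of endogenous CD8+ T (en-T) cells from 8 melanoma-bearing mice. Members were all clonotypes whose J segment was named TRBJ1-1 to TRBJ1-6, 17955 of the 60131 β-chain clonotypes and 24004 of the 80000 reads. All other clonotypes, 42176, carried 1 of 6 TRBJ2 segments. RefSeq also lists TRBJ1-7, and 0 clonotypes carried it.

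All mice were female C57BL/6 mice aged 6 to 8 weeks that were challenged with B16F10 melanoma cells on day 0, were lymphodepleted with cyclophosphamide (CTX, 300 mg/kg) on day 3, and were given ex vivo-primed Pmel-1 CD8+ T cells on day 5 and 10000 IU interleukin-2 daily for 3 days. The CTX group (n = 3 mice) received nothing further, and the CTX/CD4 group (n = 5 mice) was also injected with 200 μg of the CD4-depleting antibody GK1.5 on days 10, 17 and 24. On day 25, en-T cells were sorted from inguinal lymph nodes and spleen as CD8+ cells lacking Thy1.1, the marker of the transferred Pmel-1 cells, and 1 β-chain library was made per mouse from 100 ng of RNA. The β-chain of the transgenic Pmel-1 receptor, which recognises gp100 of melanoma cells, uses TRBV14. The tables hold TCR sequences alone, so the sorted cell type could not be checked against marker genes.

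A β-chain gene is assembled in the developing thymocyte. A D segment first joins a J segment, a V segment then joins the DJ product, and the RAG recombinase directs both steps through recombination signals next to each segment. Before the ends are sealed, bases are trimmed from them and the enzyme TdT adds nucleotides without a template. The resulting loop, CDR3, contacts the peptide. TRBD1 precedes the TRBJ1 cluster, whereas TRBD2 lies between the TRBJ1 and TRBJ2 clusters, so textbook deletional joining brings TRBJ1 to TRBD1 and TRBJ2 to either D segment.

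The germline segments are shown because their CDR3-coding length and their ends recur in the values below. They were read from the plus strand of the RefSeq GRCm38.p6 assembly, the build that corresponds to the mm10 genome named in the submitters' processing notes. Capitals mark the bases that code for CDR3, up to its last codon, and the final base of each segment precedes the splice to the constant region. TRBJ1-1 lies at chr6:41533864-41533911, TRBJ1-2 at chr6:41534001-41534048, TRBJ1-3 at chr6:41534323-41534372, TRBJ1-4 at chr6:41534811-41534861, TRBJ1-5 at chr6:41535084-41535133 and TRBJ1-6 at chr6:41535554-41535606.
TRBJ1-1: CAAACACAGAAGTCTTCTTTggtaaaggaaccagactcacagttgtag
TRBJ1-2: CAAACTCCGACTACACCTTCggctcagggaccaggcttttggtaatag
TRBJ1-3: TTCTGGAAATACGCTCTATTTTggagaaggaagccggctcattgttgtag
TRBJ1-4: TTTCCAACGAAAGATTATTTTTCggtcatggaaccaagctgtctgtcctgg
TRBJ1-5: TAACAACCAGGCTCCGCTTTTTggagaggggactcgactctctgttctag
TRBJ1-6: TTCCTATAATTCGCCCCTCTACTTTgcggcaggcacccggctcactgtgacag

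TRBJ1-1 and TRBJ1-2 contribute at most 20 bases to CDR3, TRBJ1-3 and TRBJ1-5 contribute 22, TRBJ1-4 contributes 23 and TRBJ1-6 contributes 25. Each segment is preceded by its recombination signal, and the 28 bases before each segment are shown with the heptamer in capitals, since the heptamer touches the cut. TRBJ1-1 had the consensus heptamer CACTGTG at all 7 positions, compared on the coding strand at this place only. Of the 14 J segments that RefSeq lists in both clusters, 1 (7.14%) had it.
TRBJ1-1 signal: atttttctcctcatcctatggCACTGTG
TRBJ1-2 signal: catattcgagtatctgtattcTGATGTG
TRBJ1-3 signal: ggttttgaagtggacccgggaGGCTGTG
TRBJ1-4 signal: agttttaccaccaggctttaaTGTTGTG
TRBJ1-5 signal: gagtttgtcaccctcatgttgTACTGTG
TRBJ1-6 signal: ggttttaccaaggccacctgcAGCTGTG

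Each library had been down-sampled by the authors to 10000 reads, so depth did not differ between groups. A library held 5671 to 8529 clonotypes, of which 1673 to 2705 were TRBJ1, and 76.4% to 89.5% of the TRBJ1 clonotypes were seen in 1 read. Counting error gave a 95% Wilson interval of at most 0.908 points on either side of a mouse's TRBJ1 share of reads and 1.19 points for its share of clonotypes. No molecular identifiers are named in the methods, so reads are not independent molecules and such intervals cover counting error only. Mice 1 and 2 of the CTX/CD4 group shared 56 TRBJ1 nucleotide sequences, and each of the remaining 27 pairings shared 11 to 26 (median 19). What lies behind the larger overlap was not tested, and each tested result was also computed without either mouse.

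The first question was whether the use of the TRBJ1 cluster differed after anti-CD4 treatment. TRBJ1 clonotypes made up 29.3%, 31.7% and 27.7% of the β-chain clonotypes of the CTX mice, and 30.5%, 29.6%, 29.7%, 30.9% and 29.5% of those of the CTX/CD4 mice. By reads the shares were 29.4%, 31.2% and 28.1% in the CTX mice, and 31.1%, 29.9%, 30.3%, 30.4% and 29.6% in the CTX/CD4 mice. The values of the CTX/CD4 mice lay within the range of the CTX mice on both measures. The mean share of clonotypes was 29.6% ± 2.05 (SD, n = 3) against 30.04% ± 0.608 (SD, n = 5; exact two-sided Mann–Whitney test, p = 0.571). By reads, the CTX mean of 29.6% ± 1.57 (SD, n = 3) and the CTX/CD4 mean of 30.3% ± 0.558 (SD, n = 5) also gave an exact p of 0.571. With 6 such measures compared, both had a Benjamini-Hochberg adjusted p of 0.786 in the exact test. The smallest p that 3 against 5 mice allow in this test is 0.0357, so 1 measure alone could not pass after adjustment over 6. Down-sampled reads show only proportions, so a change in the number of TRBJ1 cells could not be seen, and fewer cells and less RNA per cell cannot be told apart. The differences of 0.484 points in clonotypes and 0.68 points in reads had standard errors of 1.21 and 0.940 points.

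The 6 segments were used very unequally, and in the same order in every mouse. TRBJ1-1, nearest to TRBD1, held 9.75% ± 0.527 (SD, n = 8) of all β-chain clonotypes, more than any other TRBJ1 segment. It ranged from 9.05% to 10.2% in the CTX mice and from 9.03% to 10.4% in the CTX/CD4 mice. TRBJ1-4 followed with 5.80% ± 0.350 and TRBJ1-2 with 5.31% ± 0.207. TRBJ1-3 held 4.07% ± 0.191. TRBJ1-6 held 2.63% ± 0.145 and TRBJ1-5 held 2.30% ± 0.296, the lowest share. Each of these 5 neighbouring steps ran the same way in 8 of 8 mice. The ranges over mice overlapped between TRBJ1-4 and TRBJ1-2 and between TRBJ1-6 and TRBJ1-5, and not at the other steps.

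By reads, the shares were 9.62% ± 0.511 for TRBJ1-1, 5.90% ± 0.839 for TRBJ1-4, 5.30% ± 0.528 for TRBJ1-2, 4.01% ± 0.303 for TRBJ1-3, 3.00% ± 0.322 for TRBJ1-6 and 2.17% ± 0.329 for TRBJ1-5 (SD, n = 8). The order was that of the clonotypes, but TRBJ1-4 exceeded TRBJ1-2 in 6 of 8 mice only. The shares did not follow position alone. Across the 6 segments, the distance from the end of TRBD1, 652 bases for TRBJ1-1 and 2342 for TRBJ1-6, had a correlation of -0.761 with the share of clonotypes. The number of heptamer positions that match CACTGTG had one of 0.359. These 6 points share their libraries and are given as a description. TRBJ1-5 had 6 matching heptamer positions and the lowest share, whereas TRBJ1-4 had 4 and the next to highest.

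**Figure D1:**
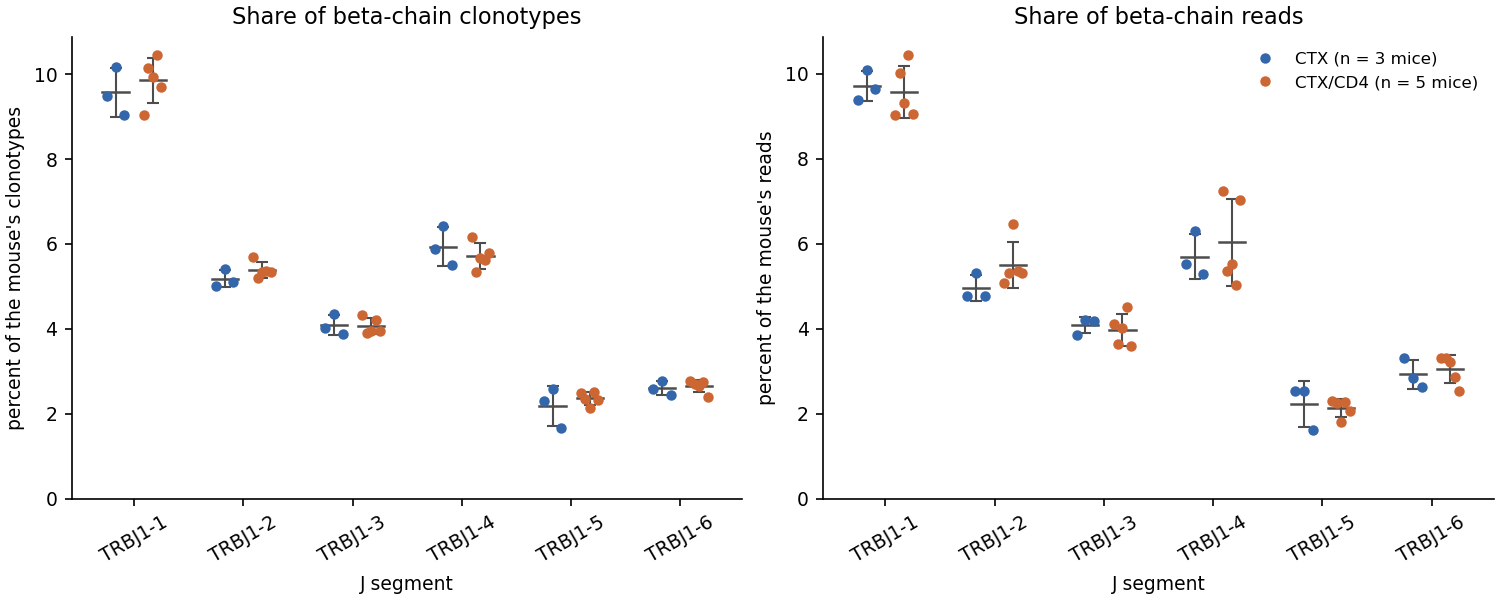
Share of each TRBJ1 segment among a mouse's β-chain clonotypes (left) and reads (right), in percent, against the segment. Points are mice, bars are the mean and SD of each group. TRBJ1-1 lies between 9.03% and 10.4% of clonotypes, above every other segment, and the groups overlap at each segment on both axes.

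No TRBJ1 segment passed the test between groups. In edgeR's quasi-likelihood test over all 12 J segments, 0 of 12 (0%) were called by clonotypes and 0 of 12 (0%) by reads at an adjusted p under 0.05, 0 and 0 had an unadjusted p under 0.05, and DESeq2 called 0 and 0. Among clonotypes, the CTX/CD4 over CTX differences of the TRBJ1 segments ran from -0.06 ± 0.05 (TRBJ1-4) to 0.11 ± 0.11 (TRBJ1-5; log2 fold ± SE), each with an edgeR adjusted p of 0.636 or more. By reads, TRBJ1-2 had the largest difference. It held 4.77%, 5.30% and 4.78% of reads in the CTX mice and 5.07%, 5.32%, 6.46%, 5.35% and 5.32% in the CTX/CD4 mice. The groups overlapped, with a log2 fold of 0.16 ± 0.10 and an adjusted p of 0.921 in edgeR.

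The same 10 measures were also set side by side for each segment, namely its shares, reads per clonotype, CDR3 length, unassigned nucleotides, J bases lost, full J ends, reads in expanded clonotypes, TRBD2 naming and V partners. Over all 12 J segments the groups did not overlap in 10 of 120 values (8.33%), and over the TRBJ1 segments they did not overlap in 2 of 60 (3.33%). The first was TRBJ1-2 reads per clonotype, which was 1.18, 1.15 and 1.18 in the CTX mice and 1.26, 1.23, 1.59, 1.43 and 1.76 in the CTX/CD4 mice. The other was the mean number of J bases lost at TRBJ1-4, which was 2.84, 2.86 and 2.77 against 2.97, 2.89, 2.97, 2.99 and 3.00. Both were named after their values were seen.

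The next question was how the segments shape the CDR3. Mean CDR3 length lay close together in the longest segments and fell stepwise over the others. It was 43.06 ± 0.207 nucleotides for TRBJ1-4, 42.99 ± 0.353 for TRBJ1-6 and 42.84 ± 0.201 for TRBJ1-3 (SD, n = 8). TRBJ1-5 had 41.52 ± 0.511, TRBJ1-2 had 40.75 ± 0.193 and TRBJ1-1 had 39.55 ± 0.156 nucleotides. TRBJ1-3 exceeded TRBJ1-5 in 8 of 8 mice with no overlap of their ranges, as TRBJ1-2 exceeded TRBJ1-1, while TRBJ1-4, TRBJ1-6 and TRBJ1-3 overlapped. TRBJ1-5 was longer than TRBJ1-2 in 8 of 8 mice with overlapping ranges. Across the 6 segments, mean length had a correlation of 0.838 with the germline CDR3-coding length, which is part of the CDR3 itself.

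The segments also differed in how much of their germline end was missing. Bases lost were counted as the CDR3-coding germline length minus the longest germline stretch found at the CDR3 end, so a base that TdT or the D segment restored by chance counts as kept. The stretch stops at its first mismatch, so a mismatch of any origin makes the J bases before it count as lost. Over both clusters, 79.1% of the J stretches as deposited were identical to germline. How far mismatches shift the values below was not tested. TRBJ1-6, with the longest CDR3-coding stretch, lost 4.15 ± 0.209 bases on average (SD, n = 8), from 3.93 to 4.52 over the mice. TRBJ1-5 lost 3.10 ± 0.233, TRBJ1-1 lost 2.95 ± 0.122 and TRBJ1-4 lost 2.91 ± 0.082 bases. TRBJ1-2 and TRBJ1-3 lost 1.70 ± 0.082 and 1.55 ± 0.083. The ranges of TRBJ1-6 and TRBJ1-5 did not overlap, nor did those of TRBJ1-4 and TRBJ1-2. TRBJ1-1 and TRBJ1-2 start with the same 5 letters and have equal CDR3-coding lengths, yet TRBJ1-1 lost more in each mouse.

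The share of clonotypes that kept the whole CDR3-coding end was 51.6% ± 1.95 for TRBJ1-3 and 40.8% ± 1.75 for TRBJ1-2 (SD, n = 8). It was 30.03% ± 2.64 for TRBJ1-4, 24.4% ± 2.54 for TRBJ1-1, 22.7% ± 2.98 for TRBJ1-5 and 21.4% ± 1.81 for TRBJ1-6. TRBJ1-3 stood above TRBJ1-2, and TRBJ1-2 above TRBJ1-4, in 8 of 8 mice with no overlap of ranges. The lower 3 segments overlapped.

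Unassigned nucleotides, those that neither V, D nor J explained in clonotypes with a named D segment, varied little among segments. Means ran from 2.37 ± 0.183 for TRBJ1-3 to 2.59 ± 0.165 for TRBJ1-4 (SD, n = 8), and the ranges overlapped at each step of the order. Over the cluster, 17.4% ± 0.986 of the clonotypes with a named D segment had none.

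**Figure D2:**
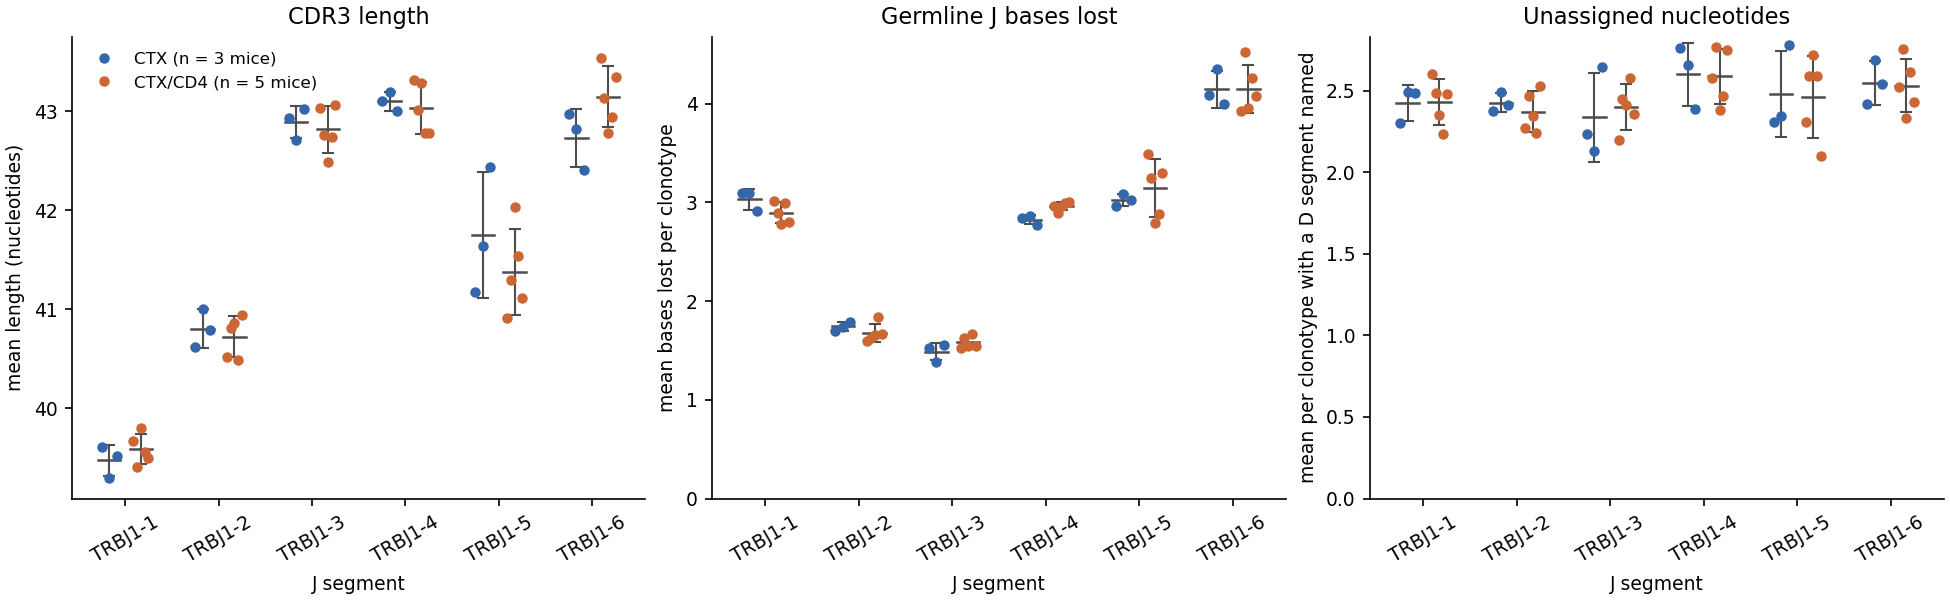
Mean CDR3 length in nucleotides (left, axis not from 0), mean germline J bases lost per clonotype (middle) and mean unassigned nucleotides per clonotype with a named D segment (right) for each TRBJ1 segment. Points are mice, bars the mean and SD of each group. TRBJ1-6 loses the most bases (3.93 to 4.52) and TRBJ1-1 has the shortest CDR3, while unassigned nucleotides overlap among all segments.

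Between the groups, these features of the joins lay close together. Mean TRBJ1 CDR3 length was 41.36, 41.35 and 41.37 nucleotides in the CTX mice and 41.49, 41.23, 41.44, 41.20 and 41.32 in the CTX/CD4 mice, so that the CTX values lay within the range of the CTX/CD4 mice. The means were 41.36 ± 0.0112 and 41.34 ± 0.128 (SD, n = 3 and 5; exact two-sided Mann–Whitney test, p = 0.786). Unassigned nucleotides were 2.41, 2.48 and 2.50 per clonotype in the CTX mice and 2.45, 2.56, 2.39, 2.39 and 2.49 in the CTX/CD4 mice. The groups overlapped, with p = 0.786 in the exact test. Both had an adjusted p of 0.786 over the 6 exact comparisons.

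Within each mouse, TRBJ1 clonotypes had shorter CDR3s than TRBJ2 clonotypes. The difference in mean length was -0.411 ± 0.121 nucleotides (SD, n = 8 mice), with 41.35 against 41.76 nucleotides, and TRBJ1 was longer in 0 of 8 mice (exact two-sided sign-flip test, p = 0.00781, the smallest that 8 mice allow; adjusted p = 0.0234 over 3 exact comparisons). Unassigned nucleotides were also fewer, 2.46 against 2.56, a difference of -0.106 ± 0.0733 (SD, n = 8), with TRBJ1 higher in 1 of 8 mice (exact p = 0.0156, adjusted p = 0.0234). They were counted only where a D segment was named. None was named in 34.7% to 37.2% of a mouse's TRBJ1 clonotypes and in 23.4% to 24.3% of its TRBJ2 clonotypes, so unequal parts were compared. The difference in length turned its direction when only clonotypes with TRBD1 named were compared, a setting added after the data were seen. There TRBJ1 was longer by 0.781 nucleotides, in 8 of 8 mice (exact p = 0.00781, adjusted p = 0.0117). TRBD1 was named in 56.9% to 60.0% of a mouse's TRBJ1 clonotypes and in 31.2% to 34.0% of its TRBJ2 clonotypes. This setting therefore compared unequal parts of the clusters, chosen by bases within the CDR3. Neither within-mouse difference passed the test between the groups (exact two-sided Mann–Whitney tests, p = 1 for length and p = 0.393 for unassigned nucleotides).

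The D segments are short and alike, so their naming in a trimmed join rests on few bases. They are shown to make this visible, read from chr6:41533201-41533212 and chr6:41542163-41542176 of GRCm38.p6.
TRBD1: gggacagggggc
TRBD2: gggactgggggggc
No D segment was named in 35.7% ± 0.944 (SD, n = 8) of TRBJ1 clonotypes. Among those with a D segment, TRBD2 was named in 8.75% ± 0.727, from 7.59% to 9.87% over the mice, although TRBD2 lies beyond the TRBJ1 cluster. By segment the mean share of TRBD2 ran from 5.91% for TRBJ1-5 to 10.2% for TRBJ1-1. Whether these names are right was not tested.

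The third question was which V segments the cluster joins. TRBV13-3 and TRBV13-1 were the most frequent partners of TRBJ1, with 11.2% ± 0.993 and 11.2% ± 1.07 of its clonotypes (SD, n = 8), and TRBV16 followed with 9.47% ± 1.28. The leading partner differed by segment. TRBV13-1 led at TRBJ1-1 (12.9% ± 1.09) and TRBJ1-5 (11.3% ± 2.64), and TRBV13-3 led at TRBJ1-2 (12.5% ± 2.59) and TRBJ1-6 (16.3% ± 2.74). TRBV16 led at TRBJ1-3 (12.3% ± 2.81) and TRBJ1-4 (10.6% ± 2.00). The first and the following partner overlapped in their ranges over mice at each segment.

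V use differed between the J clusters. In edgeR's quasi-likelihood test with the mouse as a block, 17 of 22 V segments (77.3%) had an adjusted p under 0.05, with 8 more frequent among TRBJ1 clonotypes and 9 less frequent, and DESeq2 called 16. Within a mouse, V shares of each cluster sum to the whole, so a rise of some V segments lowers others. The V segment with the smallest p was TRBV17. Its share of TRBJ1 clonotypes was 3.73%, 3.22% and 4.52% in the CTX mice and 3.39%, 3.49%, 3.81%, 4.13% and 3.95% in the CTX/CD4 mice. Its share of TRBJ2 clonotypes was 7.20%, 7.11% and 6.83% in the CTX mice and 5.88%, 5.79%, 6.25%, 6.57% and 6.45% in the CTX/CD4 mice. Each TRBJ1 value lay below each TRBJ2 value, with a log2 fold of -0.84 ± 0.07 (SE) and an adjusted p of 1.01e-09.

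TRBV14, the V segment of the Pmel-1 receptor, also was less frequent with TRBJ1. It made up 3.52%, 3.66% and 2.51% of TRBJ1 clonotypes in the CTX mice and 3.44%, 3.37%, 3.59%, 3.29% and 4.30% in the CTX/CD4 mice, lower than its TRBJ2 share in 8 of 8 mice. The means were 3.46% against 4.88%, a log2 fold of -0.55 ± 0.07 (edgeR adjusted p = 3.48e-06). TRBV15 (2.11% against 2.72%), TRBV4 (3.97% against 5.06%) and TRBV16 (9.47% against 10.8%) were lower with TRBJ1 in 8 of 8 mice as well, with log2 folds of -0.42, -0.40 and -0.25 and edgeR adjusted p-values of 8.56e-06, 9.17e-06 and 0.000168.

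In the other direction, TRBV20 had 3.52%, 3.29% and 3.52% of TRBJ1 clonotypes in the CTX mice and 3.58%, 2.80%, 3.54%, 2.78% and 3.53% in the CTX/CD4 mice. It was higher with TRBJ1 than with TRBJ2 in 8 of 8 mice, with 3.32% against 2.20% and a log2 fold of 0.55 ± 0.08 (edgeR adjusted p = 4.56e-06). TRBV29 (6.23% against 4.76%), TRBV19 (5.07% against 3.86%), TRBV31 (4.44% against 3.41%) and TRBV26 (1.76% against 1.25%) were also higher with TRBJ1 in 8 of 8 mice. Their log2 folds were 0.34, 0.34, 0.35 and 0.43, with edgeR adjusted p-values from 9.17e-06 to 0.000168. TRBV31 lies downstream of both clusters, at chr6:41557691-41558452, and is joined by inversion.

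When only clonotypes with TRBD1 named were compared, a setting added after the data were seen, 11 of 20 V segments were called, 10 of them among the 17. TRBV17 and TRBV14 had log2 folds of -1.11 and -0.81 there, and TRBV31 one of 0.68 (edgeR adjusted p-values 7.53e-28, 1.24e-15 and 9.31e-10). TRBV29 and TRBV4 turned their direction to -0.12 and 0.13 and were not called (edgeR adjusted p-values 0.120 and 0.193). TRBV26 was at 0.13 and no longer called (edgeR adjusted p = 0.475), while TRBV13-2 went from -0.0068 to 0.23 and was called (edgeR adjusted p = 0.0115). Without clonotypes of 1 read, 4 of 18 V segments were called.

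**Figure D3:**
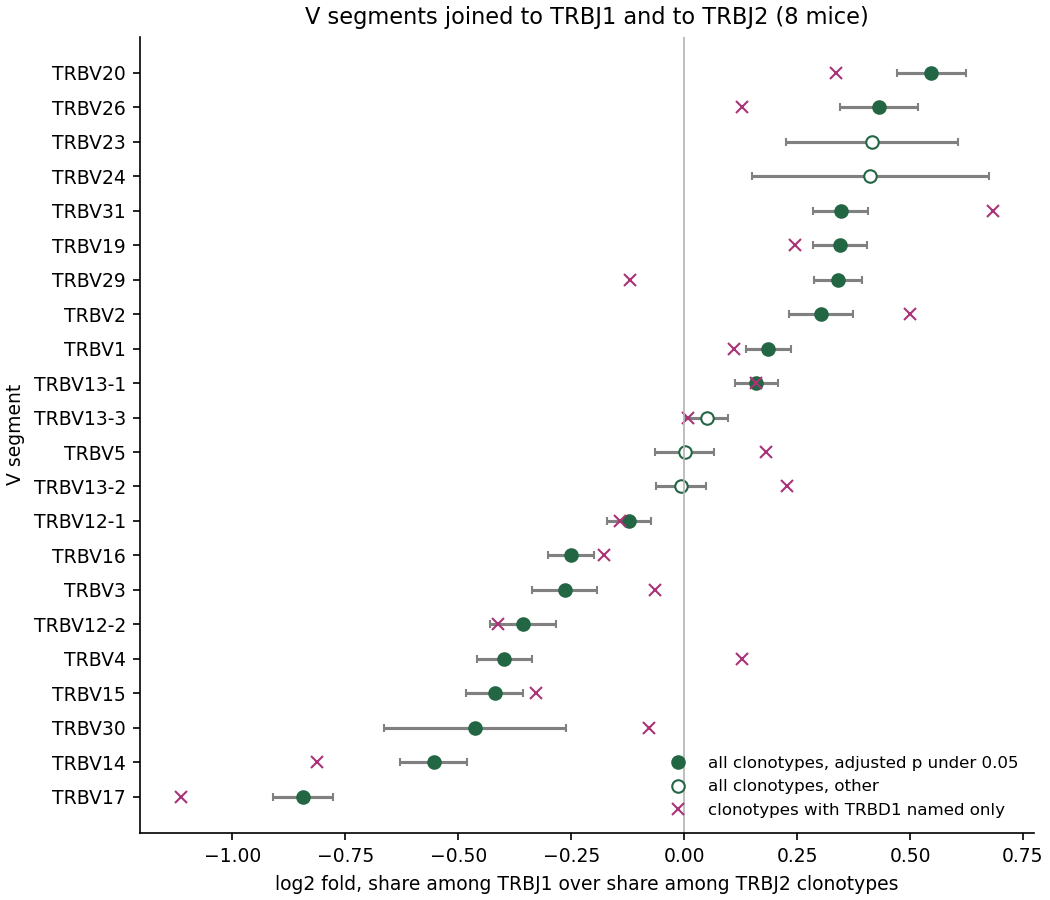
Log2 fold of each V segment's share among TRBJ1 over TRBJ2 clonotypes (x axis; y axis, V segments) over 8 mice. Circles with SE bars use all clonotypes and are filled where the edgeR adjusted p is under 0.05. Crosses use clonotypes with TRBD1 named only. TRBV17 lies lowest at -0.84 and TRBV20 highest at 0.55 among the circles, the crosses of TRBV29, TRBV4 and TRBV13-2 lie on the other side of 0 from their circles, and that of TRBV26 is at 0.13.

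The difference was not shared evenly by the 6 segments. TRBV17 made up 2.26% (TRBJ1-6) to 4.76% (TRBJ1-1) of a TRBJ1 segment's clonotypes and 4.70% to 8.15% of a TRBJ2 segment's. TRBV20 made up 1.40% to 4.12% and 1.91% to 2.52%. For each of the 10 named V segments, the mean shares of the single TRBJ1 segments overlapped those of the single TRBJ2 segments. TRBV16 stood out at TRBJ1-6, which was named after its values were seen and was not tested. TRBV16 made up 3.37%, 3.80% and 3.09% of TRBJ1-6 clonotypes in the CTX mice and 5.13%, 2.22%, 6.97%, 3.12% and 2.94% in the CTX/CD4 mice, 61 of 1588 clonotypes in all. Over the other 5 TRBJ1 segments it made up 10.0% ± 1.32 (SD, n = 8), from 7.81% to 11.7% over the mice, and the share at TRBJ1-6 was lower in 8 of 8 mice. With 136 to 237 TRBJ1-6 clonotypes per mouse, the 95% Wilson interval of a mouse's share reached at most 3.58 points on either side. TRBV20 was also scarcer at TRBJ1-6 (1.40% ± 0.899) than over the other 5 segments (3.51% ± 0.371), in 7 of 8 mice. TRBV13-3 took 16.3% ± 2.74 of TRBJ1-6 clonotypes against 10.7% ± 1.05 over the other 5, and was higher in 8 of 8 mice.

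**Figure D4:**
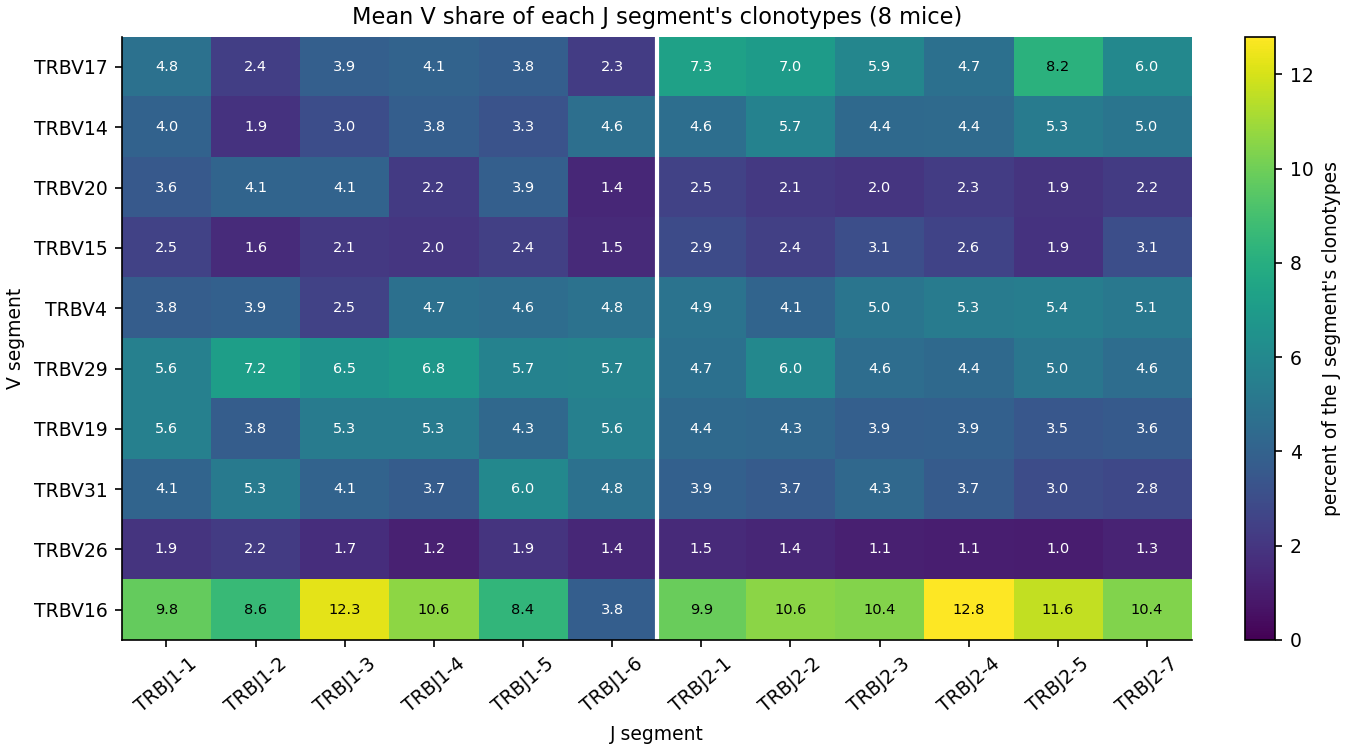
Mean share in percent of each of 10 V segments (rows) among the clonotypes of each J segment (columns), over 8 mice, with colour on the same scale. The numbers in the cells are the shares and the white line parts TRBJ1 from TRBJ2. TRBV17 reaches 4.76% at most in TRBJ1 columns, and TRBV16 has 3.83% at TRBJ1-6 against 8.40% to 12.3% at the other TRBJ1 segments.

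The diversity of V partners lay close together in the groups. The effective number of V partners, the exponential of the Shannon entropy of the V shares, was 16.9, 17.0 and 17.4 in the CTX mice and 17.8, 17.1, 17.3, 17.6 and 17.8 in the CTX/CD4 mice. The means were 17.1 ± 0.252 and 17.5 ± 0.315 (SD, n = 3 and 5; exact two-sided Mann–Whitney test, p = 0.143, adjusted p = 0.786). By segment, TRBJ1-6 had the fewest effective partners, 14.8 ± 0.687 (SD, n = 8), and TRBJ1-1 the most, 17.1 ± 0.355. TRBJ1-1 had 550 to 868 clonotypes per mouse and TRBJ1-6 had 136 to 237, and the measure was not corrected for such unequal numbers. Whether the order holds at equal numbers was not tested.

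Of 198 V–J pairs compared between groups by clonotypes, edgeR called 0 (0%), with 18 at an unadjusted p under 0.05, and DESeq2 called 0, with 9. Of the 86 TRBJ1 pairs among them, 4 had an unadjusted p under 0.05 in edgeR. The pair with the smallest p was TRBV13-3 with TRBJ1-2, which had 59, 76 and 59 clonotypes in the CTX mice and 39, 48, 53, 37 and 31 in the CTX/CD4 mice. Raw counts also follow the clonotypes per library, 8051, 8529 and 7913 in the CTX mice and 7066, 8316, 7603, 6982 and 5671 in the CTX/CD4 mice. As shares of a mouse's clonotypes, the counts of this pair were 0.733%, 0.891% and 0.746% against 0.552%, 0.577%, 0.697%, 0.530% and 0.547%. This pair had a log2 fold of -0.49 ± 0.16 (edgeR adjusted p = 0.381). The direction was not particular to it. TRBV13-3 had a mean of 12.2% of TRBJ1 clonotypes in the CTX mice (11.6% to 12.7%) and 10.6% in the CTX/CD4 mice (9.85% to 11.2%), without overlap. Its means among TRBJ2 clonotypes were 11.1% (10.5% to 12.2%) and 10.1% (9.22% to 11.0%), with overlap. V use was not tested between the groups. TRBV31 with TRBJ1-6 had 17, 12 and 14 clonotypes against 10, 10, 4, 8 and 3 (log2 fold -0.88 ± 0.34, edgeR adjusted p = 0.381). Its shares overlapped, with 0.1407% in CTX mouse 2 and 0.1415% in CTX/CD4 mouse 1. TRBV16 with TRBJ1-4 had 49, 81 and 45 against 38, 37, 44, 46 and 35 (log2 fold -0.39 ± 0.18, edgeR adjusted p = 0.498), and its log2 fold was -0.08 without CTX mouse 2.

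The last question was how TRBJ1 segments featured among expanded clonotypes, taken as those of 10 or more reads. They took 6.16%, 1.34% and 6.40% of TRBJ1 reads in the CTX mice and 10.3%, 3.45%, 11.5%, 5.35% and 23.3% in the CTX/CD4 mice. The groups overlapped, with 4.64% ± 2.85 (SD, n = 3) against 10.8% ± 7.74 (SD, n = 5; exact two-sided Mann–Whitney test, p = 0.393, adjusted p = 0.786). Within mice, the share exceeded that of TRBJ2 in 5 of 8 mice, by 1.59 ± 3.83 points (SD, n = 8; exact sign-flip test, p = 0.305). TRBJ1-6 had 19.0% ± 9.41 of its reads in expanded clonotypes, and the other segments had means of 5.67% (TRBJ1-5) to 8.06% (TRBJ1-4). Without the TRBV14 sequence found in all 8 mice, the TRBJ1-6 value was 11.0% ± 9.10 (SD, n = 8).

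Counted as clonotypes, 95 TRBJ1 clonotypes were expanded of 262 in all, 29 with TRBJ1-1, 18 each with TRBJ1-4 and TRBJ1-6, 13 with TRBJ1-2, 11 with TRBJ1-3 and 6 with TRBJ1-5. TRBJ1 made up 8 of 14, 4 of 8 and 4 of 8 expanded clonotypes in the CTX mice and 13 of 42, 5 of 17, 10 of 26, 10 of 52 and 41 of 95 in the CTX/CD4 mice. These shares were 57.1%, 50% and 50% against 31.0%, 29.4%, 38.5%, 19.2% and 43.2%, each CTX mouse above each CTX/CD4 mouse. This separation was noticed in the values and is given as a description. Without the TRBV14 sequence found in all 8 mice, the lowest CTX share was 42.9% and the highest CTX/CD4 share 42.6%. Expanded TRBJ1 clonotypes numbered 5.33 ± 2.31 per mouse in the CTX group and 15.8 ± 14.4 in the CTX/CD4 group (SD, n = 3 and 5), with overlap. Expanded TRBJ2 clonotypes, the rest of the denominator, numbered 6, 4 and 4 in the CTX mice and 29, 12, 16, 42 and 54 in the CTX/CD4 mice, without overlap. At thresholds of 5 and of 20 reads the groups overlapped in the TRBJ1 share. The counts were small, and the 95% Wilson interval of 4 of 8 runs from 21.5% to 78.5%.

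**Figure D5:**
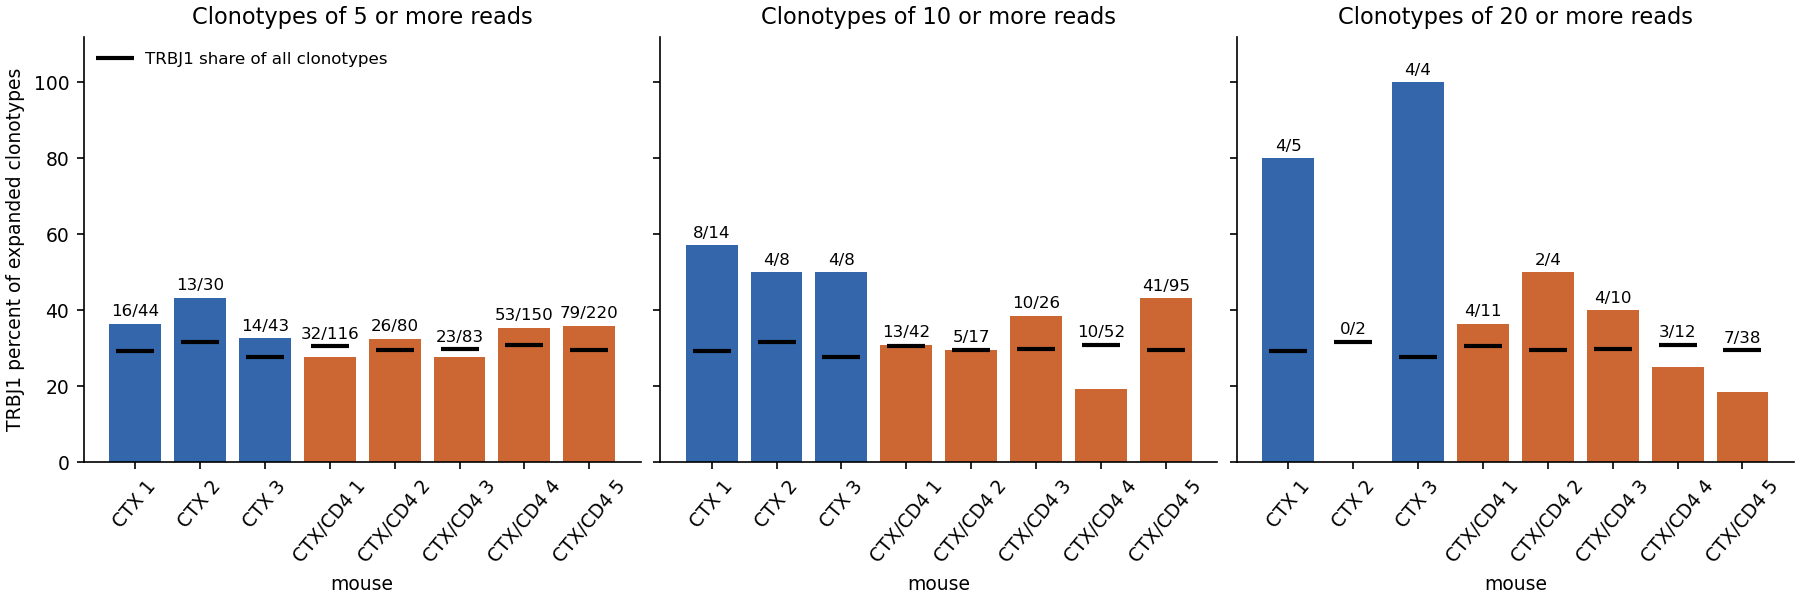
TRBJ1 percent of a mouse's expanded clonotypes (bars, from 0) at thresholds of 5, 10 and 20 reads, with the counts above the bars. Black marks show the TRBJ1 share of all clonotypes of the mouse, 27.7% to 31.7%. CTX mice (blue) and CTX/CD4 mice (orange) do not overlap at 10 reads, on 4 to 8 TRBJ1 clonotypes per CTX mouse, and overlap at 5 and at 20.

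The most abundant TRBJ1 clonotype of each mouse is shown because these sequences carry the largest read counts of the cluster in their mouse. A TRBJ1-1 clonotype had equally many reads in CTX mouse 2 (11) and in CTX/CD4 mouse 4 (29). There the sequence that comes first in alphabetical order is shown. Each sequence shown is the CDR3 on the coding strand, with the stretch that matches the germline J segment in capitals.
CTX mouse 1 and CTX/CD4 mouse 2: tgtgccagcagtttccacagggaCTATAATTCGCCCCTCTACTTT
CTX mouse 2: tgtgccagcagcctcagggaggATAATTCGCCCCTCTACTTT
CTX mouse 3: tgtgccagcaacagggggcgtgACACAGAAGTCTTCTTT
CTX/CD4 mouse 1: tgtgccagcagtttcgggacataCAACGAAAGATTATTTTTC
CTX/CD4 mouse 3: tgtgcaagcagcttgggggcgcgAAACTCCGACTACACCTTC
CTX/CD4 mouse 4: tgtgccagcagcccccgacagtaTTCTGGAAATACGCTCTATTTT
CTX/CD4 mouse 5: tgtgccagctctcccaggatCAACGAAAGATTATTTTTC

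The first sequence, TRBV14 with TRBD1 and TRBJ1-6, was the only TRBJ1 nucleotide sequence found in all 8 mice. It had 46, 3 and 28 reads in the CTX mice and 23, 51, 18, 23 and 28 in the CTX/CD4 mice. The groups overlapped, and mouse 2 of the CTX group had the lowest count. Its V segment is that of the Pmel-1 receptor, whose cells the sort was to remove, and whether it stems from them was not tested. The mean TRBJ1-6 share of reads over the 8 mice was 3.00% with it and 2.73% without it, and reads per clonotype were 1.53 and 1.40.

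The others were larger in single mice. The TRBV16 and TRBJ1-2 sequence of CTX/CD4 mouse 3 had 153 reads, 5.04% of that mouse's TRBJ1 reads and the highest count of any TRBJ1 clonotype. The TRBV14 and TRBJ1-4 sequence of CTX/CD4 mouse 1 had 68 reads there and 4 in CTX/CD4 mouse 2, the pair with the larger overlap, and was absent from the tables of the other 6 mice. The TRBV13-1 and TRBJ1-1 sequence of CTX mouse 3 had 64 reads, the TRBV12-1 and TRBJ1-4 sequence of CTX/CD4 mouse 5 had 58, the TRBV5 and TRBJ1-3 sequence of CTX/CD4 mouse 4 had 29 and the TRBV2 and TRBJ1-6 sequence of CTX mouse 2 had 11. Each of these and that of 153 reads was found in 1 mouse.

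Few TRBJ1 sequences recurred between mice. Of 17509 distinct TRBJ1 nucleotide CDR3s, 383 (2.19%) were found in 2 or more mice, against 929 of 41061 (2.26%) for TRBJ2. Those shared held 1.07 unassigned nucleotides on average where a D segment was named, and those of 1 mouse held 2.51. They were also shorter, 39.8 against 41.4 nucleotides. Only 2 were found in 5 or more mice, the TRBJ1-6 sequence above and the sequence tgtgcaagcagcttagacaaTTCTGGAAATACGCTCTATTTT of TRBV16 and TRBJ1-3, with the J stretch in capitals. The latter had 1 read in each of 5 mice. The 383 shared sequences include the 56 that mice 1 and 2 of the CTX/CD4 group had in common. The sharing values were not computed without these mice.

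Across the 8 mice, the V segments whose share of clonotypes followed the TRBJ1 share most closely were TRBV4 (Pearson r = 0.697), TRBV20 (r = 0.511) and TRBV12-2 (r = 0.511). These are descriptions over mice that share their library with the TRBJ1 share.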

How the data were processed

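The authors prepared β-chain libraries from RNA by reverse transcription and nested PCR without stated molecular identifiers, removed adapters with Scythe and Sickle, aligned the reads with MiXCR, extracted clonotypes with VDJtools and took 10000 reads of every library. Per the file headers the deposited tables give, for each clonotype, its read count, its fraction of the library, CDR3, V, D and J names and the positions of the segment ends within CDR3 (counted from 0). The fraction equalled the count divided by 10000 and was not used further. The versions of MiXCR and VDJtools are not given in the sources used here, and the α-chain tables were not used here.

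Clonotypes were the rows as deposited. Unassigned nucleotides are the bases between the V and D and the D and J stretches, in clonotypes with a named D segment. Groups were compared per mouse by the exact two-sided Mann–Whitney test (56 arrangements), and TRBJ1 with TRBJ2 by the exact sign-flip test over 8 mice, in Python 3.11.15 (numpy 2.4.6, pandas 2.3.3, scipy 1.17.1; figures matplotlib 3.10.9). Counts per J segment, V–J pair and V segment, kept with at least 10 in at least 3 mice (for the V segments, in at least 3 of the columns of a mouse and cluster), were fitted over the whole table in edgeR 4.0.16 (R 4.3.3, TMM, quasi-likelihood test, adjusted p under 0.05), and DESeq2 1.42.0 was the alternative tool. SEs of edgeR folds were taken from the quasi-likelihood F. Both steps were tested on simulated data. Segment coordinates come from RefSeq. Named were all 6 segments, the leading V partner of each, 10 V segments and 3 V–J pairs by smallest p, the most abundant TRBJ1 clonotype per mouse, sequences in 5 or more mice, and 3 V segments by likeness. The members and lists were chosen with earlier results of these data known.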

Additional observations from a re-analysis of the deposited data

Results flagged for a closer look

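In the CTX/CD4 group, mouse 3 lay far from the others in its TRBJ1-2 share of reads, 6.46% against 5.07% to 5.35% in the other 4 mice, a gap of 0.799 of the group's range where Dixon's critical value for 5 samples is 0.71. That mouse held the TRBV16 and TRBJ1-2 clonotype of 153 reads. Of 46 values examined in this way, 1 stood apart, and chance alone marks about 1 in 20.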

How the results depend on the processing

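Of 551 alternative values, 501 kept their direction and their side of the threshold or lay within 1.5 times the count, and the cause of the others was not tested except where the construction shows it. The CTX/CD4 minus CTX differences of the 6 measures compared did not pass the test after adjustment in any setting tried. The exact Mann–Whitney test left little room for this. Without 1 CTX mouse its smallest possible p is 0.0952, and without 1 CTX/CD4 mouse 0.0571, so no measure could pass in those settings. That of TRBJ1 CDR3 length turned to 0.0759 nucleotides without clonotypes of 1 read and 0.111 when weighted by reads, and that of unassigned nucleotides to 0.135 and 0.0423. Leaving out each mouse in turn gave -0.0585 to 0.0152 for length, -0.0338 to 0.0117 for unassigned nucleotides, -0.466 to 1.57 points for the share of clonotypes and -0.05 to 1.51 points for the share of reads. Among segments, the log2 folds by clonotypes without those of 1 read turned to 0.17 (TRBJ1-3), 0.18 (TRBJ1-4) and -0.0374 (TRBJ1-5). Without 1 mouse they ran from -0.0337 to 0.0240 (TRBJ1-3), -0.0404 to 0.24 (TRBJ1-5) and -0.000992 to 0.0647 (TRBJ1-6) by clonotypes, and from -0.0408 to 0.0113 (TRBJ1-1) and -0.23 to 0.0513 (TRBJ1-5) by reads.

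The shorter CDR3 of TRBJ1 than TRBJ2 became a longer one, 0.781 nucleotides, with TRBD1-named clonotypes only. The 17 V segments called between the clusters were 4 without clonotypes of 1 read, where fewer clonotypes were counted, and 11 with TRBD1 named only, where TRBV4 turned to 0.13 and TRBV29 to -0.12. Leaving out a mouse gave 15 to 17. The TRBJ1 difference in the share of expanded clonotypes was -5.61 points at 5 or more reads and -26.0 at 20 or more, and -22.9 to -16.9 without 1 mouse. The difference in TRBJ1 reads in expanded clonotypes, 6.15 points between groups, was 3.03 to 7.98 without 1 mouse, lowest without CTX/CD4 mouse 5, and that of TRBJ1 over TRBJ2, 1.59 points, was 0.980 (without CTX/CD4 mouse 3; 1.01 without CTX mouse 3) to 2.59 (without CTX/CD4 mouse 4). Without 1 mouse, the log2 folds of the 3 pairs ran from -0.53 to -0.36 (TRBV13-3 with TRBJ1-2), -1.004 to -0.68 (TRBV31 with TRBJ1-6) and -0.48 to -0.08 (TRBV16 with TRBJ1-4).

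Replicate numbers are shared by both groups, but samples of 1 number did not deviate together (correlations of -0.0947, -0.0699 and 0.0169 over 198 V–J pairs), so the number was not taken as a pairing. With the replicate block, the differences in length and unassigned nucleotides turned to 0.0326 and 0.00454, 0 J segments and 0 V–J pairs were called, and no call between groups changed. Counting error was wide for V–J pairs and expanded clonotypes, whose numbers per mouse were small.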
